A study of Mus musculus with 27 samples.

Results

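The genes described here are the semaphorins, plexins, neuropilins, ephrins, Eph receptors, netrins, netrin receptors, Slits and Robos, the main families of axon and dendrite guidance cues and their receptors. They were chosen by gene symbol (Sema, Plxn, Efna, Efnb, Epha, Ephb, Slit or Robo followed by its number or letter, the Slitrk genes left out, with Nrp1, Nrp2, Ntn1, Ntn4, Dcc and Unc5a to Unc5d added). This gave 66 genes of 19301 measured with 1 symbol, each with 1 probe set. By family they were 20 semaphorins, 9 plexins, 2 neuropilins, 5 ephrin-A and 3 ephrin-B ligands, 9 EphA and 4 EphB receptors, 2 netrins, 5 netrin receptors, 3 Slits and 4 Robos.

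RNA was measured on 27 mouse arrays in 9 groups of 3, each array from 200 fluorescent cells sorted out of dissociated adult retina. Arc amacrine cells came from Tg(Arc-EGFP)194Gsat/Mmcd mice, with GFP driven by the immediate early gene Arc, and the study used them as a control between batches. Cone photoreceptors came from Tg(Chrnb4-EGFP)1Gsat mice, with GFP driven by the nicotinic receptor gene Chrnb4. Starburst amacrine cells, retinal interneurons that release acetylcholine, came from 129S6-Chat_tm1(cre)Lowl/J mice crossed to Rosa26-LSL-RFP mice, so that Cre driven by Chat switches on RFP. Numbers of cells are written starburst/cone. The titration ran 200/0 (pure starburst), 150/50, 100/100, 50/150 and 0/200 (pure cone), and further groups, called X mixtures, were 43/157, 125/75 and 17/183. All groups were adult, and the labels give all of them the same mixed background of C57BL/6J with FVB/N-Swiss Webster hybrid. Mice from the resource centre carried a recessive photoreceptor degeneration mutation and were crossed back before their F2 offspring were used. Retinas were pooled before the titration sorts, 2 of the cone line with 6 of the starburst line. Cell type and mouse line cannot be told apart in any comparison below.

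Guidance cues steer growing axons and dendrites, and many stay on in adult neurons, where they act on synapses and branches. Semaphorins signal through plexins, with neuropilins as partners for the secreted class 3 members. Ephrins are membrane-bound ligands of the Eph receptor kinases, netrins act through Dcc and the Unc5 receptors, and Slits act through Robos. In the developing mouse retina, the transmembrane semaphorin Sema6a and its receptor Plxna2 pattern the dendrites and the layering of starburst cells.

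The promoters of Ephb6 and Epha10, the members called lower in pure cone than in pure starburst arrays, and of Epha7, the member called higher in Arc amacrine than in pure starburst arrays, are shown from RefSeq (GRCm38.p6) so that these called receptors can be set side by side. Each runs from 250 bases before to 50 bases after the gene's start, 5′ to 3′ on the gene's strand, and Epha7 has 2 starts in the table, of which the first is given. Capitals mark the GC box GGGCGG, which binds Sp factors, and the CCAAT box, each on either strand (CCGCCC and ATTGG on the other).
Ephb6 (chr6:41605261-41605560, + strand): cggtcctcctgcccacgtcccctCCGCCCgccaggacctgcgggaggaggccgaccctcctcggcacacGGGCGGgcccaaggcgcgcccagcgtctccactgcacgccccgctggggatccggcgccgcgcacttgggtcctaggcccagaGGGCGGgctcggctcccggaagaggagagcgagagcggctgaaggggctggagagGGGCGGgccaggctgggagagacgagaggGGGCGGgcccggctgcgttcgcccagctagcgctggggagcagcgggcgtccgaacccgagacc
Epha10 (chr4:124881535-124881834, + strand): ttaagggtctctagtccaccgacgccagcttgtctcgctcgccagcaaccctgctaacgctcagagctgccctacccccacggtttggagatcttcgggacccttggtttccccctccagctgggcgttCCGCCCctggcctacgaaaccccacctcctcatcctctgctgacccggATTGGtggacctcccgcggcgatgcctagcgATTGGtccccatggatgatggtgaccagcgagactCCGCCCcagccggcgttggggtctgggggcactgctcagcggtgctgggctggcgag
Epha7 (chr4:28812881-28813180, + strand): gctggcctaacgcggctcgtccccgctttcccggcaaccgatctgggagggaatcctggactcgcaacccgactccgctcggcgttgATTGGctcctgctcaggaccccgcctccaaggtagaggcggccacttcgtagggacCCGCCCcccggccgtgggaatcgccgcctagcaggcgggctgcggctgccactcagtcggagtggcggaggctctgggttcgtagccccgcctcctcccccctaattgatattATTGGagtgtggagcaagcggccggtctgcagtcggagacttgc
The Ephb6 promoter held 5 GC boxes and 0 CCAAT boxes, and 76.3% of its bases were G or C. Epha10 held 2 GC boxes and 2 CCAAT boxes, and Epha7 held 1 GC box and 2 CCAAT boxes. A GC box stood in 72.2% of the 72 promoters listed for 56 of the 66 genes, against 35.7% of all 32851 promoters of this length. A CCAAT box stood in 27.8% of the members' promoters, against 37.4% of all. TAATCC, a core that photoreceptor homeobox factors bind, was searched on both strands as well. It stood in 2.78% of the members' promoters, against 7.06% of all, and in 0 of the 3 shown. The matches describe letters in these windows only. The members' promoters were not matched to the set of all promoters, and members with several starts were counted more than once. The differences in share were not tested.

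The labels were checked on marker lists, whose level is the log2 of the summed linear values. The starburst list (6 genes) stood at 11.30 to 11.43 on pure starburst arrays and at 5.15 to 6.50 on Arc amacrine and pure cone arrays. Its largest gene on pure starburst arrays was Slc18a3 (10.59 to 10.77), while Chat read only 3.81 to 4.58 and Slc5a7 3.05 to 4.42. Chat read 2.71 to 3.21 on Arc amacrine and pure cone arrays. The cone list (7 genes) stood at 12.32 to 13.62 on pure cone arrays and at 6.04 to 8.13 on the other 2 cell types. Rod genes were present throughout (6 of 6 measured), at 8.18 to 8.88 on Arc amacrine, 11.32 to 11.99 on pure cone and 8.98 to 9.95 on pure starburst arrays. This sum follows its largest gene, Sag, at 11.06, 11.02 and 10.95 on pure cone and 8.10, 8.87 and 7.70 on pure starburst arrays. On pure cone replicates 1 and 2, Nrl, Pde6b and Reep6 stood above all pure starburst arrays by less than Sag, and Gnat1 and Cnga1 did not. Replicate 3 of every group with at least 75 cones other than the equal mixture had the lowest cone list level of its group. The rod transducin gene Gnat1 read 8.11, 8.28 and 10.41 on the pure cone arrays, against 7.42, 8.49 and 7.58 on the pure starburst arrays. In the Arc amacrine cells the GABA-synthesising enzyme Gad2 read 5.61 to 6.18, and Arc 4.46 to 4.58 against 2.79 to 3.63 on all other arrays. The amacrine list (6 genes), which holds Gad2, stood at 9.21 to 9.43 on Arc amacrine arrays. It stood at 10.25 to 10.51 on pure starburst and 5.91 to 6.85 on pure cone arrays. Of its genes, Calb2 (2.70 to 2.82) and Slc6a9 (2.21 to 2.67) lay under the median of all values on all Arc arrays. Between pure cone and pure starburst arrays 328 genes were called higher and 720 lower (410 and 538 after a further quantile normalization). Between Arc amacrine and pure cone arrays 974 were called higher and 312 lower (684 and 425 after it), and over the titration 317 and 722 (403 and 520 after it).

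Of the 66 genes, 33 rose above the median of all values (2.83 on the log2 scale) on at least 3 arrays and were tested. A gene that passed this filter through 1 group had to be higher there, so counts over the 33 describe the genes that passed and not the whole families. The tested genes were 11 semaphorins, 4 plexins, 0 neuropilins, 3 ephrin-A and 3 ephrin-B ligands, 4 EphA receptors and 1 EphB receptor, 2 netrins, 2 netrin receptors, 1 Slit and 2 Robos. The untested 33 had means over all arrays of 2.01 to 2.60 and no array above 3.10. Of these, 19 never rose above the level and 14 did so on 1 or 2 arrays. They include the netrin receptor Dcc (above on 2 arrays), the class 3 semaphorin co-receptors Nrp1 (1 array) and Nrp2 (0 arrays), and Plxna4, another Sema6a receptor (0 arrays). At this signal over background their differences could not be measured, which is not a statement that they are absent. Only Efna4, Efnb1, Epha10, Ephb6, Sema3b and Sema3f were above the level on all 27 arrays, and 13 tested genes had a mean over all arrays under it.

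**Figure D1:**
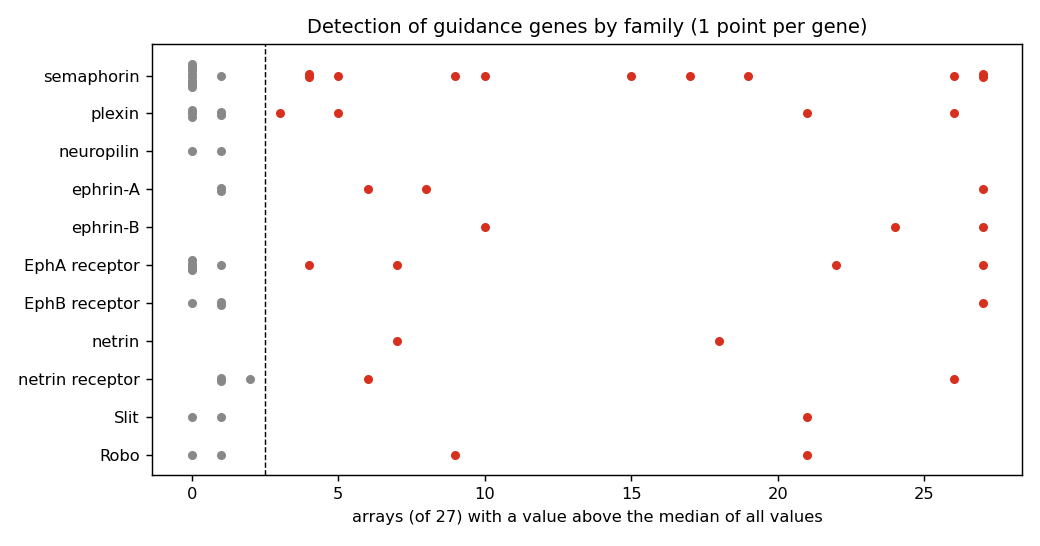
Number of the 27 arrays (x axis) on which each guidance gene read above the median of all values, by family (y axis), with 1 point per gene. Red points right of the dashed line are the 33 tested genes, grey points the 33 untested ones, and both neuropilins lie left of the line.

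Genes were called at a limma adjusted p under 0.05 with a log2 fold change of at least 1 in size, with p-values adjusted over 12441 genes. The error given with each fold change is its standard error in the fit of all 27 arrays (n = 3 per group). The labels call the replicates biological, and the study sorted the titration mixtures from different mice each time. Between pure cone and pure starburst arrays 2 of the 33 genes were called, both lower in cones (6.06%), beside 8.42% of all tested genes called, 2.64% higher and 5.79% lower. Between Arc amacrine and pure starburst arrays 1 was higher and 1 lower (6.06%, beside 3.55% of all, 2.16% higher and 1.39% lower). Between Arc amacrine and pure cone arrays 1 was higher (3.03%, beside 10.3% of all, 7.83% higher and 2.51% lower). With 1 or 2 genes called in each comparison, these shares cannot be set apart from those of all genes. Comparisons that share a group share its arrays and are not independent.

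The medians of the fold changes lay close to those of all genes. For pure cone against pure starburst the median was -0.07 over the guidance genes and -0.04 over all tested genes. It was 0.04 and 0.03 for Arc amacrine against pure starburst, and 0.07 and 0.07 for Arc amacrine against pure cone. The median width of the 95% confidence interval was ± 0.34 on either side. Of the uncalled genes, 28 of 31, 27 of 31 and 30 of 32 in these comparisons had an interval wholly within a log2 fold change of 1 in size. The tested genes include 13 with a mean over all arrays under the filter level, where low signal shrinks folds. For these genes a narrow interval near 0 cannot tell a small difference from a signal too low to show one.

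**Figure D2:**
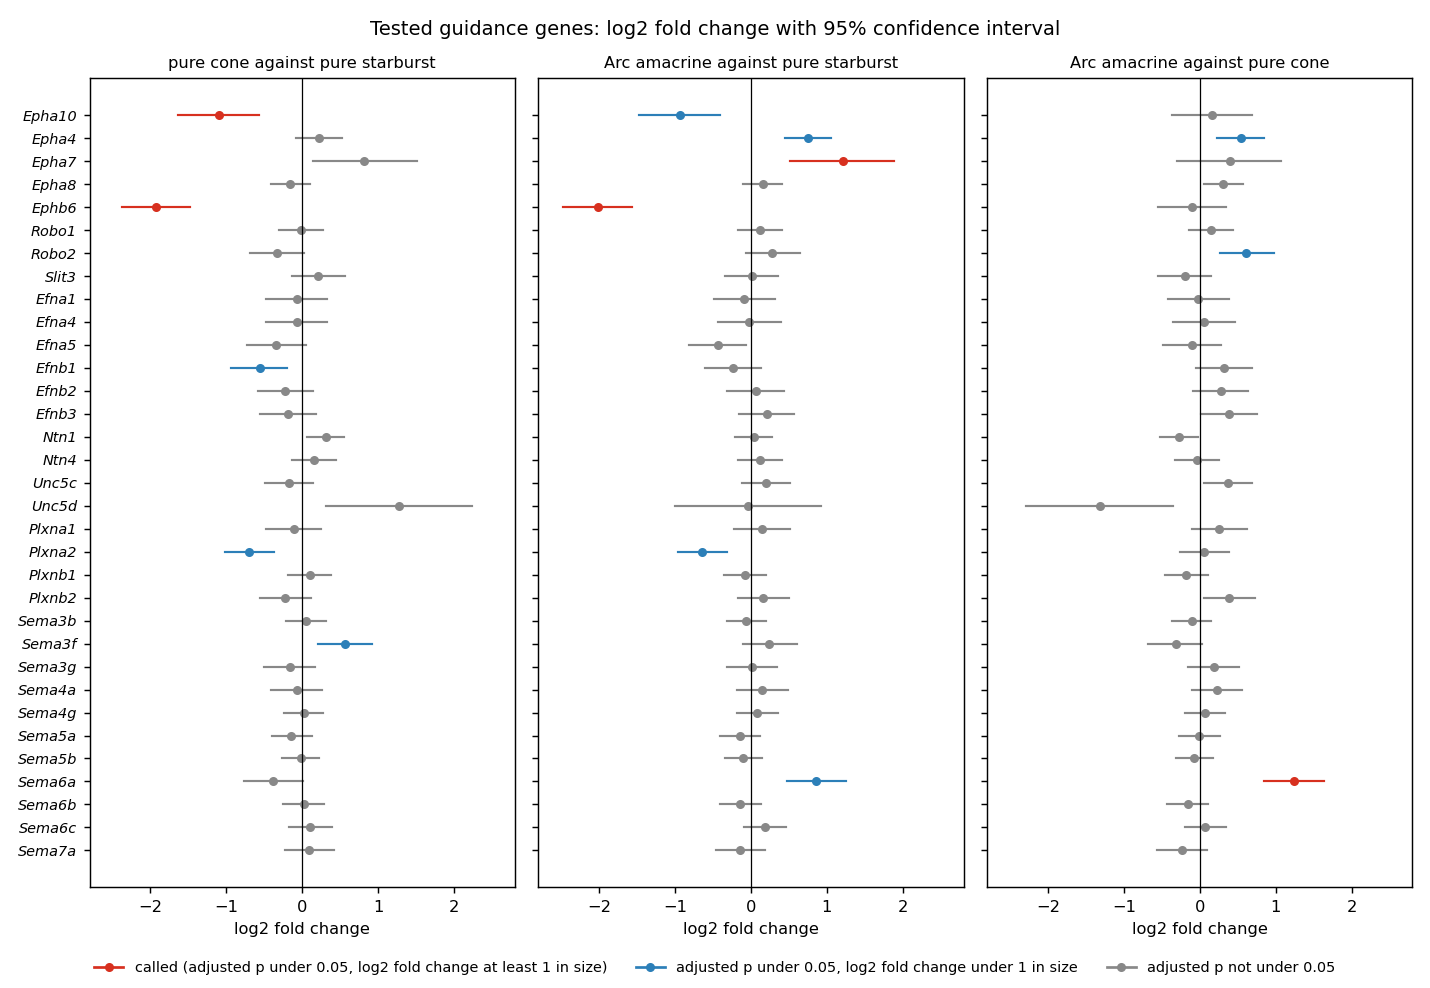
Log2 fold change (x axis) with its 95% confidence interval for the 33 tested guidance genes (y axis) in the 3 comparisons of cell types, from the limma fit over 27 arrays. Red marks called genes, blue an adjusted p under 0.05 with a smaller fold, and grey the rest; most intervals cross 0, and Ephb6 lies farthest left in the first and second panels.

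The Eph receptors called in at least 1 comparison of cell types were Ephb6, Epha10 and Epha7. Ephb6 is an Eph receptor whose kinase domain lacks activity and which signals through partner receptors. Its log2 values were 3.58, 3.60 and 3.96 on the Arc amacrine arrays, 4.26, 3.68 and 3.51 on the pure cone arrays and 5.83, 5.60 and 5.77 on the pure starburst arrays. Every starburst array stood above every Arc and cone array. Ephb6 was lower in cones than in starburst cells by a log2 fold change of -1.92 ± 0.22 (adjusted p = 1.7e-06), a 3.78-fold difference. It was lower in Arc amacrine than in starburst cells by -2.02 ± 0.22 (1.1e-06), a 4.05-fold difference. Between Arc amacrine and cone cells it was not called, with a log2 fold change of -0.10 and a 95% interval of -0.55 to 0.35. The calls against starburst cells were kept under all 13 alternative settings in each comparison.

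Epha10, another Eph receptor without kinase activity, was also highest on the pure starburst arrays. Its log2 values were 4.08, 4.09 and 4.12 on the Arc amacrine arrays, 3.80, 3.89 and 4.13 on the pure cone arrays and 4.55, 5.22 and 5.34 on the pure starburst arrays. The starburst arrays again stood above all Arc and cone arrays, but replicate 1 stood apart from replicates 2 and 3. Cones had a 2.15-fold lower level of Epha10 than starburst cells, a log2 fold change of -1.10 ± 0.25 (adjusted p = 0.0045; interval -1.63 to -0.57). It fell short of the fold threshold without pure starburst replicate 3 (-0.95) and after a further quantile normalization (-0.94). For Arc amacrine against starburst cells it was -0.94 ± 0.25 (0.0282), past the adjusted p but under the fold.

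Epha7, a kinase-active receptor of ephrin-A ligands, was highest in the Arc amacrine cells. Its log2 values were 4.18, 4.58 and 3.32 on the Arc amacrine arrays, 3.00, 3.47 and 4.45 on the pure cone arrays and 2.88, 3.01 and 2.57 on the pure starburst arrays. The Arc arrays lay above the starburst arrays, and the Arc and cone arrays overlapped. Arc amacrine cells had a 2.31-fold higher level of Epha7 than starburst cells, a log2 fold change of 1.21 ± 0.33 (adjusted p = 0.0303). This call held in 6 of 13 alternative settings, with adjusted p from 0.0067 to 0.192. It was lost without pure starburst replicate 1 (0.0738), 2 (0.0528) or 3 (0.118) and without Arc amacrine replicate 1 (0.119) or 2 (0.192). It was also lost after a further quantile normalization (0.0746) and with only the groups compared in the fit (0.0636). In cones against starburst cells Epha7 was not called (0.82 ± 0.33, 0.105). The cone array with the high Epha7 value, replicate 3, was also the one with the high Gnat1 value, and the part of rod cells in it was not tested. With replicate 3 of every group left out, Epha7 was called higher in Arc amacrine than in cone cells (1.14, 0.0413), against 0.39 (0.485) with all arrays.

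The other tested EphA receptors were Epha4 and Epha8. Epha4, which binds ephrins of both classes, is named here after its values were seen. Its log2 values were 3.19, 2.90 and 3.26 on the Arc amacrine arrays, 2.61, 2.49 and 2.64 on the pure cone arrays and 2.29, 2.55 and 2.25 on the pure starburst arrays. Arc arrays were the highest, and only 1 array of any other group was above the filter level. Epha4 therefore passed the filter through the group in which it was high, and all pure cone and pure starburst arrays lay under the level, so its differences have only a background to stand against. As a description, the log2 fold change of Arc amacrine cells was 0.75 against starburst cells and 0.54 against cones, both under the fold threshold. Epha8 did not pass in any comparison of cell types, with log2 fold changes between -0.16 and 0.31.

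None of the 6 tested ephrins, the ligands of these receptors, was called. Efnb1, a ligand of EphB receptors, had log2 values of 3.69, 3.52 and 3.76 on the pure cone arrays and 4.21, 3.99 and 4.46 on the pure starburst arrays. All cone arrays lay below all starburst arrays, with a log2 fold change of -0.56 ± 0.18 (adjusted p = 0.0361), under the fold threshold (past the adjusted p in 6 of 13 alternative settings). The Arc amacrine arrays read 4.10, 3.88 and 3.95 and overlapped the starburst arrays. Efna4, an ephrin-A ligand, averaged 3.45 ± 0.24 on the Arc amacrine, 3.40 ± 0.12 on the pure cone and 3.47 ± 0.25 on the pure starburst arrays (SD, n = 3 each). Its fold changes lay between -0.07 and 0.05, and their sign turned in some settings. The remaining tested ephrins were not called. In cones against starburst cells the log2 fold changes were -0.07 for Efna1, -0.34 for Efna5, -0.22 for Efnb2 and -0.18 for Efnb3. For Arc amacrine against starburst cells they were -0.09 for Efna1, -0.44 for Efna5 (adjusted p = 0.22), 0.06 for Efnb2 and 0.21 for Efnb3.

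**Figure D3:**
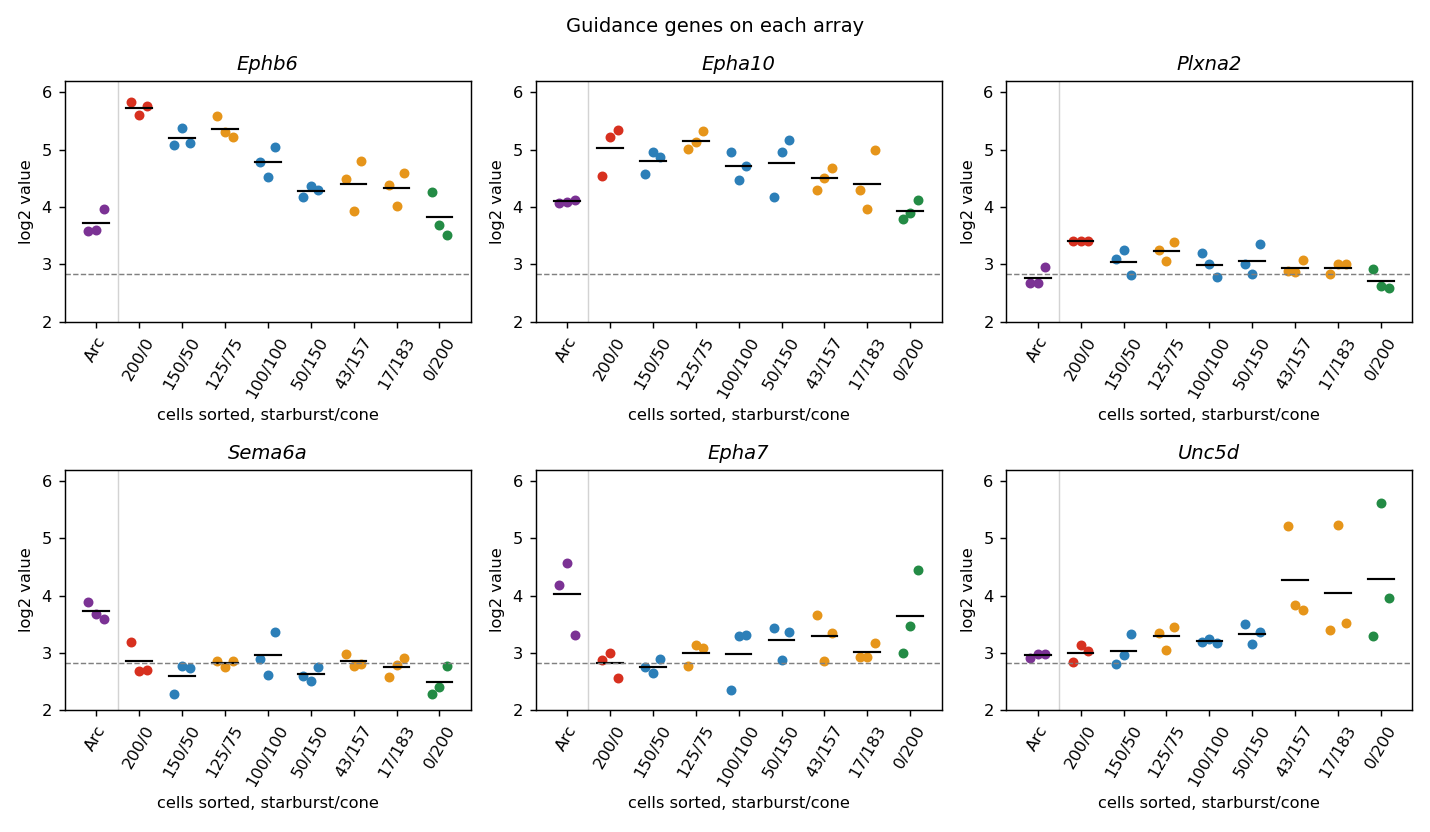
Log2 values (y axis) of 6 guidance genes on all 27 arrays, by group (x axis: Arc amacrine, then starburst/cone cells sorted, from 200/0 to 0/200). Points are arrays, bars group means and the dashed line the filter level of 2.83. Colours mark the Arc (purple), pure starburst (red), titration mixture (blue), X mixture (orange) and pure cone (green) groups. Ephb6 steps down with the cone share over the titration (red, blue and green). Sema6a is high on the Arc arrays, and Unc5d stands out on 3 single arrays.

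Among the semaphorins, Sema6a was the one called. Sema6a read log2 values of 3.89, 3.69 and 3.60 on the Arc amacrine arrays, 2.29, 2.40 and 2.77 on the pure cone arrays and 3.19, 2.69 and 2.71 on the pure starburst arrays. All Arc arrays stood above all arrays of the other 8 groups, whose highest value was 3.36. The pure cone arrays and starburst replicates 2 and 3 lay under the filter level, so folds against them depend on the background. Arc amacrine cells had a 2.36-fold higher level of Sema6a than cones, a log2 fold change of 1.24 ± 0.19 (adjusted p = 4.6e-05; interval 0.85 to 1.63), and this was called in all 13 alternative settings. Against starburst cells the fold change was 0.86 ± 0.19 (0.0050), under the fold threshold, and 1.03 without pure starburst replicate 1. Between cones and starburst cells Sema6a was not called (-0.38 ± 0.19, 0.205).

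Plxna2, the Sema6a receptor, was on the other side. Its log2 values were 2.68, 2.67 and 2.95 on the Arc amacrine arrays, 2.92, 2.62 and 2.58 on the pure cone arrays and 3.41, 3.40 and 3.41 on the pure starburst arrays. The starburst arrays were nearly equal and stood above all Arc and cone arrays. The log2 fold change of Plxna2 was -0.70 ± 0.15 in cones (adjusted p = 0.0033) and -0.64 ± 0.15 in Arc amacrine cells (0.0131), each against starburst cells. Both stayed under the fold threshold in all 13 alternative settings, and the log2 fold change of Arc amacrine against cones was 0.06 (interval -0.26 to 0.38). Of the 3 arrays in each, 2 Arc amacrine and 2 pure cone arrays lay under the filter level, so that this last value compares signals near background. Among the 3 cell types the ligand Sema6a thus stood highest on the Arc arrays and the receptor Plxna2 on the starburst arrays, each gene set against itself across groups.

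The summed level of retinal ganglion cell markers was also higher on the Arc amacrine arrays, where Sema6a, Epha4 and Epha7 were high. The summed level of 6 measured ganglion cell genes was 6.87 to 7.59 on Arc amacrine, 5.88 to 6.56 on pure cone and 5.61 to 6.10 on pure starburst arrays. This sum follows its largest gene on the Arc arrays, the surface protein Thy1. It read 7.09, 6.75 and 5.96 there, against 4.13 to 4.36 on pure cone and 3.73 to 4.69 on pure starburst arrays. Sncg, Nefl and Nefm on the Arc arrays each overlapped at least 1 of the other cell types. The defining markers Rbpms (2.17 to 2.29) and Pou4f1 (1.80 to 2.06) lay under the filter level on the Arc arrays. On at least 1 Arc array 4 of the 6 lay above it, as many as on pure cone and on pure starburst arrays. The part of ganglion cells in the values of Sema6a, Epha4 and Epha7 was not tested.

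Sema3f, a secreted class 3 semaphorin, was higher in cones, though by less than the threshold. Its log2 values were 4.46, 4.35 and 4.51 on the pure cone arrays and 3.75, 3.89 and 3.98 on the pure starburst arrays, without overlap. Its log2 fold change was 0.57 ± 0.17 (adjusted p = 0.0282), and it passed the adjusted p in 7 of 13 alternative settings. The Arc amacrine arrays read 3.88, 4.26 and 4.22. Over the titration Sema3f averaged 3.88, 4.25, 4.26, 4.04 and 4.44 at 0, 50, 100, 150 and 200 cones, and its slope did not pass (0.37 ± 0.15, adjusted p = 0.109), though it passed in 2 of 22 alternative settings. Bipolar cell markers, 5 measured of 6 listed, had a summed log2 level of 6.28 to 7.35 on pure cone arrays and 5.10 to 6.36 on pure starburst arrays, with 3 of the 5 above the filter level on pure cone arrays. Cabp5, a calcium-binding protein of bipolar cells, read 5.22 to 6.10 on pure cone and 2.72 to 3.76 on pure starburst arrays. The defining markers Grm6 and Prkca lay under the filter level on all pure cone arrays. The part of bipolar cells in the values of Sema3f was not tested. Sema3b, of the same class, averaged 3.12 ± 0.16 on the Arc amacrine, 3.23 ± 0.10 on the pure cone and 3.18 ± 0.03 on the pure starburst arrays (SD, n = 3 each). Its fold changes lay between -0.11 and 0.05. The other 8 tested semaphorins and the other 3 tested plexins were not called in any comparison.

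Netrin receptors gave one gene of uneven values. Unc5d, of the Unc5 family through which netrins repel growing axons, read log2 values of 2.92, 2.99 and 2.99 on the Arc amacrine arrays, 3.29, 5.62 and 3.96 on the pure cone arrays and 2.85, 3.14 and 3.04 on the pure starburst arrays. It was above 5 on 3 arrays only, namely pure cone replicate 2 (5.62), the 43/157 mixture's replicate 1 (5.21) and the 17/183 mixture's replicate 2 (5.24). The other 9 arrays with at least 150 cones read 3.16 to 3.96 (median 3.50), and the 15 arrays with fewer or no cones 2.81 to 3.46 (median 3.05). Every pure cone array thus lay above every Arc and starburst array, while cone arrays differed from each other by more than 2 log2 units. The log2 fold change in cones against starburst cells was 1.28 ± 0.46 (adjusted p = 0.0708), and in Arc amacrine against cones -1.32 ± 0.46 (0.0515). Neither was called, and Unc5d was called in cones against starburst cells without pure cone replicate 1 (1.78, 0.014). The other tested receptor, Unc5c, and the ligands Ntn1 and Ntn4 were not called. Of these, Ntn1 had log2 fold changes of 0.31 in cones against starburst cells (0.0831) and -0.28 in Arc amacrine against cones (0.112).

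Slit and Robo genes were not called in any comparison. Robo2, a Slit receptor, read log2 values of 3.43, 3.30 and 3.57 on the Arc amacrine arrays, 2.63, 3.02 and 2.81 on the pure cone arrays and 3.16, 3.16 and 3.13 on the pure starburst arrays. The 3 cell types did not overlap, in the order Arc amacrine, starburst and cone. Only 1 of the 3 pure cone arrays was above the filter level, so folds of Robo2 against cones depend on the background. The log2 fold change of Arc amacrine against cones was 0.61 ± 0.17 (adjusted p = 0.0134), under the fold threshold, and those against starburst cells did not pass the adjusted p (0.28 for Arc amacrine, 0.467, and -0.33 for cones, 0.224). Robo1 and the ligand Slit3 had log2 fold changes between -0.20 and 0.21.

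Counting an adjusted p under 0.05 at any fold, 5 of the 33 guidance genes passed in cones against starburst cells (15.2%, beside 14.1% of all tested genes). In Arc amacrine against starburst cells 6 passed (18.2%, beside 5.75%), namely Ephb6, Epha10 and Plxna2 lower and Epha7, Epha4 and Sema6a higher. Of these, Epha10 passed in 7 of 13 alternative settings, Epha7 in 6 and Plxna2 in 11, and Epha4 entered the test through its Arc amacrine arrays, so that this count supports nothing about the families. Between Arc amacrine cells and cones 3 passed, all higher in Arc amacrine cells (9.09%, beside 17.7%).

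The titration asked how each gene followed the share of cones from 0 to 200 of 200 cells. Its slope, given as the log2 change from pure starburst to pure cone, shares its end groups with the comparison of pure groups. Of the 33 genes 1 was called, lower (3.03%, beside 8.35% of all, 2.55% higher and 5.8% lower). This was Ephb6, with a slope of -1.90 ± 0.19 (adjusted p = 3.5e-07). Ephb6 averaged 5.73 ± 0.12, 5.20 ± 0.16, 4.79 ± 0.26, 4.28 ± 0.10 and 3.82 ± 0.40 on the log2 scale at 0, 50, 100, 150 and 200 cones (SD, n = 3 each). Its mean was lower at each step. At any fold 4 genes passed the adjusted p (12.1%, beside 16.9% of all), the others being Epha10 (-0.89 ± 0.23, 0.0085), Plxna2 (-0.55 ± 0.14, 0.0074) and Efnb1 (-0.54 ± 0.16, 0.0207). Epha10 averaged 5.04, 4.80, 4.72, 4.77 and 3.94 over the same steps, with its main step between 150 and 200 cones. Sema6a had a slope of -0.29 (0.263), Epha7 of 0.84 (0.053) and Unc5d of 1.15 (0.0621).

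On the linear scale (2 to the power of the log2 value), where a mixture of RNA adds up, Ephb6 averaged 53.4 ± 4.3, 36.9 ± 4.1, 28.0 ± 5.1, 19.4 ± 1.4 and 14.5 ± 4.2 over the 5 steps (SD, n = 3 each). The mixtures of 50, 100 and 150 cones thus stood at 42.4%, 65.3% and 87.2% of the way to pure cone, against stated cone shares of 25.0%, 50.0% and 75.0%. All 3 means lay under the straight line between the pure groups, by -6.8, -5.9 and -4.7. The starburst marker list stood at 11.13 to 11.25, 10.69 to 10.97 and 10.31 to 10.58 on the log2 scale in these mixtures, against 11.30 to 11.43 on pure starburst arrays. The list thus fell by less than Ephb6, whose log2 means were 5.20, 4.79 and 4.28 in these mixtures against 5.73 on pure starburst arrays. In a bulk sample, numbers of cells and RNA per cell cannot be told apart. Why Ephb6 and the list differ was not tested. Of the X mixtures, the one with 75 cones averaged 41.7 ± 5.9 for Ephb6, 9.3 above the line between its neighbouring titration groups and 2.9 above the line between the pure groups. These lines use the stated numbers of cells. The cone marker list read 11.58, 11.51 and 9.33 on the arrays with 75 cones, below the 12.20, 12.02 and 11.89 on those with 50 cones. The part of this lower cone signal in the Ephb6 value was not tested. The X mixtures with 157 and 183 cones averaged 21.9 ± 6.4 and 20.4 ± 4.0 for Ephb6, which is 3.2 and 4.3 above the line between neighbours. Against the line between the pure groups these differences were -0.9 and 2.7, so that the direction for 157 cones depended on the line. For Epha10 the linear means were 33.8, 28.0, 26.5, 28.4 and 15.4 over the titration, so that the mixture of 150 cones stood only 29.1% of the way to pure cone. Its spread was wide, with arrays at 18.1, 31.1 and 36.1. The X mixtures with 75, 157 and 183 cones averaged 35.8 ± 4.0, 22.7 ± 3.0 and 22.3 ± 8.4 for Epha10. The one with 157 cones thus stood 60.1% of the way to pure cone, apart from the mixture of 150 cones.

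**Figure D4:**
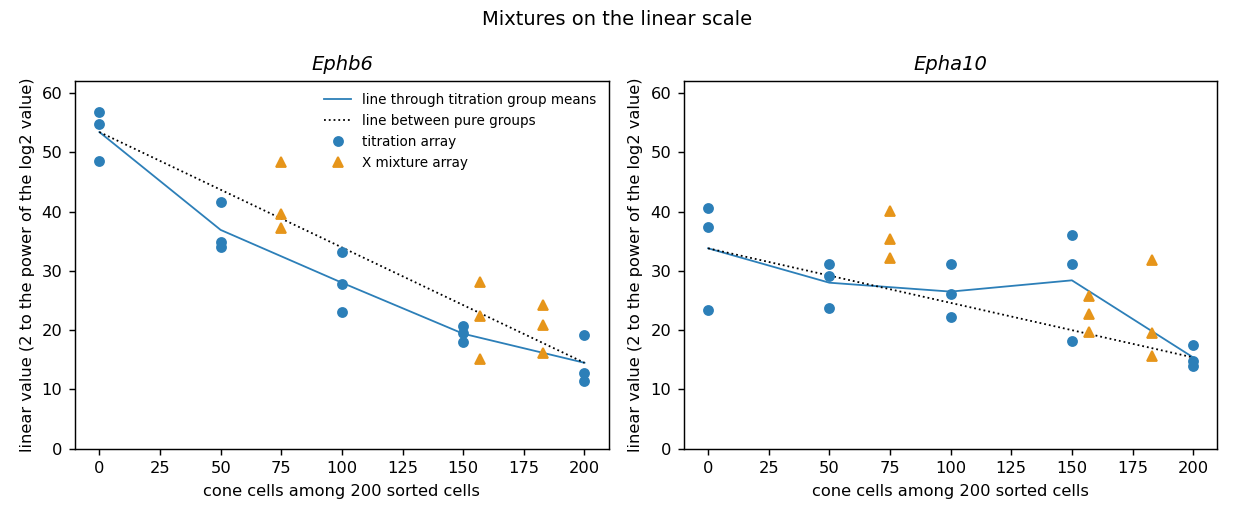
Linear values (2 to the power of the log2 value, y axis) of Ephb6 and Epha10 against the number of cone cells among 200 sorted (x axis). Blue circles are titration arrays and orange triangles X mixture arrays. The blue line joins titration group means and the dotted line the pure group means. Ephb6 titration means lie under the dotted line. Epha10 titration means stay high up to 150 cones, while the X mixture arrays at 157 cones lie under the mean at 150 cones.

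Each X mixture was set against a titration group nearest in stated numbers of cells, which for 125/75 was not matched by the cone marker list. No guidance gene was called in any of them by limma. For 43/157 against 50/150 cells, 0 of 12441 genes were called, and 0 of the 33 guidance genes had an unadjusted p under 0.05 (7.77% of all did). For 125/75 against 150/50 cells 0 genes were called as well, and 1 guidance gene, Robo2, had an unadjusted p under 0.05 (6.43% of all). Robo2 read log2 values of 3.38, 3.79 and 3.68 in the 125/75 and 3.16, 3.27 and 2.82 in the 150/50 mixture (0.53 ± 0.17, adjusted p = 0.529). For 17/183 against pure cone arrays 91 genes were called (0.731%), with 2 guidance genes under an unadjusted p of 0.05 (9.5% of all). These were Ephb6 (0.52 ± 0.22, adjusted p = 0.428) and Efnb1 (0.51 ± 0.18, 0.273).

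Guidance genes outside these families, from a list of 20 other cues, adhesion molecules and receptors, gave 0 called of 12 tested in each comparison of cell types and in the titration by limma. An unadjusted p under 0.05 was found for 2 of them in cones against starburst cells (26.1% of all genes), 1 in Arc amacrine against starburst cells (16.1%), 2 in Arc amacrine against cones (29.6%) and 3 over the titration (28.7%). The 6 Slitrk genes, which encode synaptic adhesion proteins, were all tested and gave 1 call. Slitrk3 was higher in Arc amacrine than in starburst cells (1.00 ± 0.29, adjusted p = 0.0394), with log2 values of 4.13, 3.01 and 2.76 against 2.16, 2.65 and 2.08. That call was lost in 7 of 12 settings, at 0.0515 with a replicate block, at 0.295 without Arc amacrine replicate 1 and at 0.135 and 0.142 without pure starburst replicates 1 and 3. With only the groups compared, Slitrk3 rose above the filter level on too few arrays to be tested. All pure starburst arrays and Arc amacrine replicate 3 lay under that level, so its fold depends on the background.

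Of 38 listed genes of signalling downstream of guidance receptors, 27 were tested. Their shares called are given beside those of all genes, and the difference was not tested. In cones against starburst cells 4 were lower and 0 higher (14.8%, beside 8.42% of all). Srgap3, a GTPase-activating protein of the Slit and Robo pathway, read 8.92, 8.85 and 9.65 on the pure cone arrays and 10.56, 11.11 and 10.94 on the pure starburst arrays (-1.73 ± 0.26, adjusted p = 5.2e-05). Crmp1, a mediator of semaphorin signalling, differed by -1.57 ± 0.23 (5.5e-05) and the small GTPase Cdc42 by -1.41 ± 0.24 (3.1e-04). The fourth was the kinase Fyn (-1.20 ± 0.39, 0.045), named after its values were seen, which lost its call in 8 of 13 settings, at 0.0521 with a replicate block. These included leaving out pure cone replicate 1 (0.0864) or 3 (0.163) and pure starburst replicate 2 (0.156) or 3 (0.11). In Arc amacrine against cones 6 were higher and 1 lower (25.9%, beside 10.3% of all), and without Arc amacrine replicate 1 the count was 4 in place of 7. Srgap3 read 11.59, 11.69 and 11.51 on the Arc amacrine arrays (2.46 ± 0.26, 4.0e-07), Cdc42 differed by 1.76 ± 0.24 (1.7e-05) and the actin-severing cofilin Cfl1 by 1.69 ± 0.28 (1.3e-04). In Arc amacrine against starburst cells 2 were called (7.41%, beside 3.55%). Dpysl3, a relative of Crmp1 that acts on the cytoskeleton, was lower (-1.88 ± 0.32, 5.7e-04), with values of 3.81, 4.57 and 4.46 on Arc amacrine and 6.15, 5.90 and 6.43 on pure starburst arrays. Cfl1 was higher (1.23 ± 0.28, 0.0071), but not without Arc amacrine replicate 2 (0.0652). Over the titration 4 were lower (14.8%, beside 8.35%; 2 without pure cone replicate 3), and Srgap3 had a slope of -1.59 ± 0.23 (3.2e-05). Genes such as Cdc42 and Cfl1 serve many pathways of the cytoskeleton besides guidance.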

How the data were processed

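Gene expression was measured on 27 arrays of 9 groups, grouped by the labels. The authors deposited log2 intensities after RMA (oligo, R 2.11.1; genome build mm9), per the submitters' processing notes. RMA pulls low signals towards a floor, which shrinks folds of dim genes. Array medians lay between 2.78 and 2.89, 0 array pairs were identical, and precision is set by how few arrays each group has, as arrays have no read depth. The 19446 probe sets with 1 symbol (of 22347) were used, and 735 with several and 2166 with none were not.

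One fit over all arrays was made (R 4.3.3, limma 3.58.1; lmFit, then eBayes, on group means, with 18 residual and 3.42 prior degrees of freedom), two-sided, with Benjamini-Hochberg adjustment over the 12441 genes above 2.83 (the median of all values) on at least 3 arrays. There were 7 comparisons. The fit of pure cone against pure starburst was tested on simulated data of 12441 genes. Of 50 genes changed at each log2 size, it called 46% at 1, 90% at 2, 100% at 3 and 98% at 4, beside 5 unchanged genes. The share at a size of 1 is held down by the fold threshold, which lies at that same size.

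Genes named were Sema6a and Plxna2, all called members, the 6 uncalled members of highest mean, known ligands or receptors of called members, and the 3 called genes of largest fold per further list. Members and lists were chosen with earlier results of these data known. Per the study's design text, replicate numbers mark separate sorts from different mice for the titration. Deviations of same-numbered titration arrays from their group means correlated at -0.029 to 0.235 over 30 pairs, of which 3 were above 0.1. Over all groups 16 of 108 pairs were above 0.1 (highest 0.305), and 17/183 with pure cone was the one pair of groups above 0.1 for every number (0.197, 0.125 and 0.305). The block called 0 members there, as did the fit without it. Whether the other groups share pools by number is not given in the sources used here. Alternatives were a replicate block, no filter, a variance trend, further quantile normalization, averaged probe sets, only the groups compared, each replicate left out, and, added after seeing the data, replicate 3 of every group left out.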

Additional observations from a re-analysis of the deposited data

How the results depend on the processing

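Ephb6 was called lower against starburst cells in 13 of 13 alternative settings for cones, 13 of 13 for Arc amacrine cells and 22 of 22 for the titration, and Sema6a higher in Arc amacrine than in cone cells in 13 of 13. Counts of guidance genes called moved elsewhere, and the cause was not tested. A further quantile normalization left 1 gene lower in cones against starburst cells (in place of 2, without Epha10) and 0 higher in Arc amacrine against starburst cells (in place of 1). With only the groups compared, 0 were higher in Arc amacrine against starburst cells as well. In Arc amacrine against cones, 2 were higher (in place of 1) without replicate 3 of every group, and 1 was lower (Unc5d, in place of 0) with a variance trend. Over the titration 1 was higher (Unc5d, in place of 0) with only the groups compared. Leaving out single replicates gave 0 to 2 higher and 1 to 2 lower in cones against starburst cells (2 higher, Epha7 and Unc5d, without pure cone replicate 1). It gave 0 to 1 higher and 1 to 2 lower in Arc amacrine against starburst cells (2 lower, with Epha10, and Sema6a in place of Epha7 as the 1 higher, without pure starburst replicate 1), 1 higher and 0 to 1 lower in Arc amacrine against cones, and 0 to 2 higher and 1 to 2 lower over the titration. The replicate block left every one of these counts as it was (2 lower in cones and 1 lower and 1 higher in Arc amacrine against starburst cells) and the log2 fold change of Ephb6 in cones at -1.92, and changed no call of a named member. Among the further lists it took 1 call from the Slitrk genes (Arc amacrine against starburst, 0) and added 1 to the other cues (Arc amacrine against cones).

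Against the line between the pure groups, linear means differed by 3.4 (Epha10, 43/157), 2.9 (Ephb6, 125/75), -5.9 (Ephb6, 100/100) and -4.7 (Ephb6, 50/150), in place of -3.9, 9.3, -0.2 and -1.8 against neighbours. The sign also turned for Ephb6 in 43/157 (-0.9 in place of 3.2) and Epha10 in 100/100 (1.9 in place of -1.7). Among fold changes, signs turned only for uncalled ones. Without replicate 3 of every group they were 0.06, 0.02, -0.04 and 0.01 for Efna4 (cones and Arc amacrine against starburst, Arc amacrine against cones, titration), -0.02 and -0.04 for Sema3b (cones against starburst, titration) and -0.09 for Plxna2 (Arc amacrine against cones). After quantile normalization they were -0.03 for Epha10 and -0.01 for Efna4 (Arc amacrine against cones). With single replicates left out, Efna4 ranged over -0.18 to 0.07, -0.12 to 0.12, -0.05 to 0.19 and -0.19 to 0.00 in the same order of comparisons. Sema3b ranged over 0.00 to 0.09 in cones and -0.13 to 0.02 in Arc amacrine against starburst cells, where Unc5d ranged over -0.12 to 0.02. In Arc amacrine against cones Plxna2 ranged over -0.03 to 0.16 and Ephb6 over -0.25 to 0.12. Of all genes, 91 were called for 17/183 against pure cone arrays, and 8 with only the groups compared. Signal near background limits the 33 untested genes and the 13 tested ones of low mean.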
